A study of Mus musculus with 4 samples.

Results

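Arc, Homer1 and Bdnf were followed through every array feature whose platform gene symbol is 1 of these 3 names: 1 feature of Arc, 4 of Homer1 and 2 of Bdnf, together 7 of the 16281 features of the series. Features are called here by their number on the array (Arc 3568, Homer1 1049, 6082, 9851 and 15155, Bdnf 7818 and 15431). All 7 had a value on every array. The series held 4 two-colour microarrays of dentate gyrus RNA from young male C57BL/6J mice, 1 array at each of 1, 2, 4 and 6 h. On each array RNA of mice that had received MK-801 (dizocilpine, a blocker of the NMDA receptor channel), at 300 µg per g body weight (printed as labelled, with an error of unit possible) and with Cy5 as its dye, was set against RNA of mice that had received saline, at 5 µL per g and with Cy3. The labels count the times from the last shock of MK-801 mice yet call the RNA of both channels that of control mice, so whether these mice were shocked is not settled. The number of mice behind each RNA sample is not in the labels.

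Arc, Homer1 and Bdnf are genes that hippocampal neurons transcribe in response to synaptic activity. Calcium that enters through NMDA receptors and voltage-gated channels activates kinases and transcription factors such as CREB, SRF and MEF2, which act on these genes. Arc encodes a protein that works with the endocytic machinery to remove AMPA-type glutamate receptors from synapses. Homer1 encodes postsynaptic adaptor proteins: the long forms pair through a coiled coil and tie metabotropic glutamate receptors, Shank proteins and intracellular calcium channels together, while a short form, induced by activity, lacks the coiled coil and loosens these links. Bdnf encodes a neurotrophin that is secreted from neurons and acts on the receptor TrkB, and it is transcribed from several alternative first exons.

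A window upstream of the first annotated Homer1 start and of the third Bdnf start in genome order is printed here, because calcium-driven transcription is known to use cyclic AMP response elements and, of the 9 windows found for Homer1 and Bdnf, these 2 held the core of that element. Both sequences are from RefSeq, build GRCm38.p6, plus strand, cover the 250 bases before the start, and have each match to TGACG on either strand in capitals (CGTCA where the match is on the other strand).
Homer1 chr13:93303507-93303756: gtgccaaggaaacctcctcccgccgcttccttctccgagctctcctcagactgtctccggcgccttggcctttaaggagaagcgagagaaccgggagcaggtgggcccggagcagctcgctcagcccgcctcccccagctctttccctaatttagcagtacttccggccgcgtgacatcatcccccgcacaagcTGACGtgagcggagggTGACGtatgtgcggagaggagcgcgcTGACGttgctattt
Bdnf chr2:109692186-109692435: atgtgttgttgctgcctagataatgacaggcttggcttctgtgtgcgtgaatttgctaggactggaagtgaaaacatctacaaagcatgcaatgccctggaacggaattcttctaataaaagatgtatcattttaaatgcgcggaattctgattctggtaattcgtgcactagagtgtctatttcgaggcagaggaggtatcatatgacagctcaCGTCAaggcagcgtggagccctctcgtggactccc
The Homer1 window held 3 matches, which began 56, 40 and 14 bases before the start. The Bdnf window held 1, which began 35 bases before the start. Of 32851 windows of this length in the same table, 17.8% held at least 1 match and 0.688% held 3 or more. The second Homer1 window and the other 6 of the 7 Bdnf windows held no match, and neither printed window held the full palindrome TGACGTCA, which 1.55% of all windows held. No window was found for Arc, so its upstream sequence was not examined. The match is a description of the letters and shows no binding. The sources used here do not say which transcripts the array features read, so no feature can be tied to 1 of these starts.

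All values that follow are log ratios of the 2 channels, less the median of their array and read as log2. Neither the log base nor the direction of the ratio is stated: which of MK-801 and saline RNA a value above 0 favours is unknown, and signs are kept as deposited. If the logarithms are natural, every size has to be multiplied by 1.44. A ratio carries no level, so the genes cannot be compared for abundance and the tissue cannot be checked against its markers for presence. In RNA of a whole tissue, a change in the number of cells of a type and a change in RNA per cell cannot be told apart. The 1 h array stood apart from the others. Across 8777 features with a value on all 4 arrays its ratios correlated at r = -0.06 with 2 h, -0.07 with 4 h and -0.07 with 6 h, while the other pairs of arrays correlated between 0.64 and 0.80 (Pearson; features are not independent replicates). In the 8735 features that stayed above -1.5 on every array, the pairs with 1 h correlated between -0.15 and -0.13 and the other pairs at 0.46 (2 and 4 h), 0.53 (2 and 6 h) and 0.70 (4 and 6 h). By a robust SD (from the median absolute deviation) its spread was also wider, at 0.32. That SD was 0.23, 0.23 and 0.21 on the 2, 4 and 6 h arrays. The plain SD over all features with a value was 0.37, 0.32, 0.44 and 0.38 at 1, 2, 4 and 6 h. By that measure the 4 h array was the widest.

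Arc, which had a single feature, was positive at 1 h and near or below 0 later. Its ratio was 0.51 on the 1 h array, -0.01 on the 2 h array, -0.21 on the 4 h array and -0.19 on the 6 h array. Of all features with a value, 91.3% lay below Arc at 1 h and 48.7% at 2 h. At 4 h and 6 h 17.8% and 19.5% did, so Arc passed from the upper end of the array through its middle to the lower part. The sign at 2 h is not firm, since the deposited value before centring was 0.0011. Of all features with values on all 4 arrays, 15% were positive at 1 h and negative at 2, 4 and 6 h, as Arc and Homer1 6082 were (2 of the 7).

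**Figure D1:**
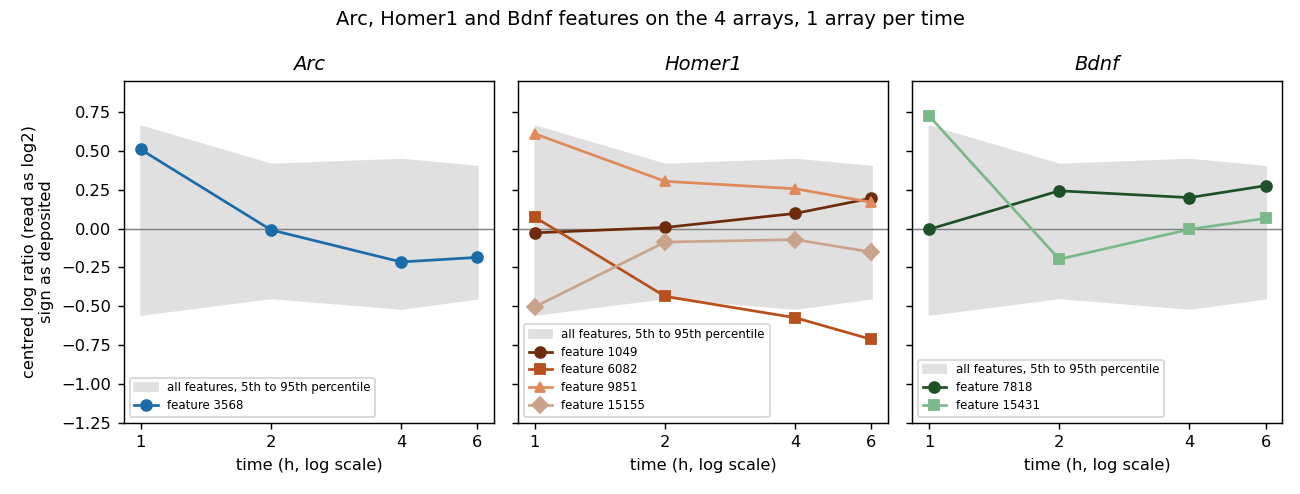
Centred log ratio (read as log2, sign as deposited) of each Arc, Homer1 and Bdnf feature against time in h on a log scale, 1 array per time, with a grey band from the 5th to the 95th percentile of all features with a value on that array. Arc, at 0.51 at 1 h and -0.19 at 6 h, stays within the band, Bdnf 15431 lies above it at 1 h (0.73), and Homer1 6082 lies below it at 4 h (-0.57) and 6 h (-0.71).

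The 4 Homer1 features did not share 1 time course. Homer1 6082 was low at all later times: it read 0.07 at 1 h and -0.44, -0.57 and -0.71 at 2, 4 and 6 h. At 6 h 2.26% of all features lay below it, at 4 h 4.2% and at 2 h 5.15%, while at 1 h 58.9% did. Homer1 9851 was positive throughout, with ratios of 0.61, 0.30, 0.26 and 0.17 in the order of the times. Homer1 15155 was negative throughout, with ratios of -0.50, -0.09, -0.07 and -0.15, the 1 h value being the lowest. Homer1 1049 was near 0 at 1 and 2 h and highest at 6 h, with ratios of -0.03, 0.01, 0.10 and 0.20, the reverse of the order in 9851. Over all features tested, 11.4% were positive on all 4 arrays and 14.2% negative on all 4.

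Homer1 features 1049 and 9851 cite the same sequence record in the platform annotation, and yet they were apart at the early times. They differed by 0.64 and 0.30 at 1 and 2 h and by 0.16 and 0.03 at 4 and 6 h, so they came together with time. Other pairs of features that cite 1 record give a measure of how far such pairs lie apart on these arrays. Among 348 such pairs at 1 h the median absolute difference was 0.33 and 18.7% were at least as far apart as the Homer1 pair. At 6 h the median over 228 pairs was 0.14 and 84.2% were at least as far apart. The distance of 0.64 between these features at 1 h was therefore not unusual for pairs of 1 record on that array. A single feature's ratio of that size at 1 h has to be read against it. The medians do not show the pairs that lie far apart. The 95th percentile of the differences was 1.06, 0.76, 2.65 and 2.76 at 1, 2, 4 and 6 h. Ratios of single features at 4 and 6 h have to be read against that too.

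**Figure D2:**
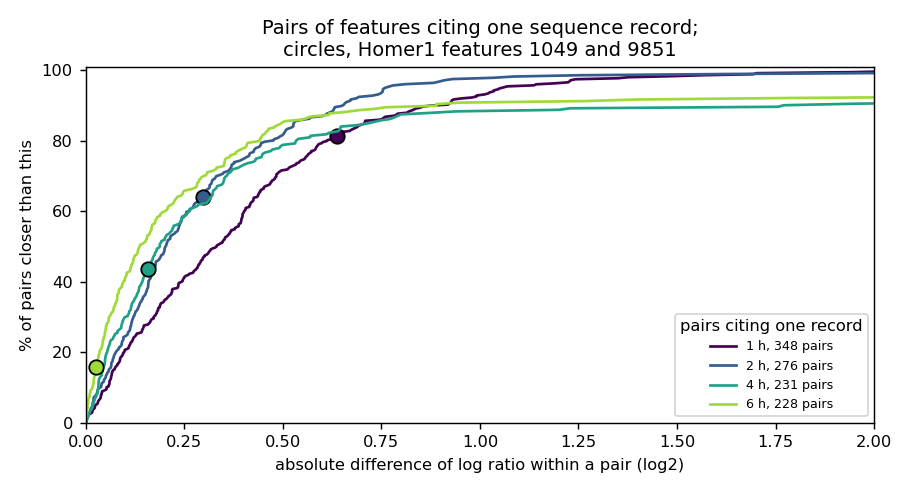
Share of pairs of features citing 1 sequence record (%, vertical) whose log ratios lie closer together than the value on the horizontal axis (absolute difference, log2, shown up to 2), with a line per array and a circle for Homer1 features 1049 and 9851. The Homer1 pair moves left from 0.64 at 1 h to 0.03 at 6 h, and the 1 h line lies to the right of the others over most of the range under 0.5. The 95th percentile of the pairs at 4 and 6 h (2.65 and 2.76) lies beyond the part shown.

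Homer1 9851 lay above Homer1 6082 on all 4 arrays, by 0.54, 0.74, 0.83 and 0.88 at 1, 2, 4 and 6 h. Of the pairs of features of the same gene, 27.1%, 6.32%, 10.9% and 6.73% were at least as far apart at 1, 2, 4 and 6 h. Homer1 9851 also lay above Homer1 15155 on every array, by 1.11 at 1 h and between 0.32 and 0.39 later, and 4.67%, 24.2%, 32.5% and 28.1% of the pairs of 1 gene were at least as far apart at 1, 2, 4 and 6 h. The 6 pairs of Homer1 features and the Bdnf pair were compared by an exact two-sided sign-flip test over the 4 arrays, which cannot give a p below 0.125. Feature pairs 6082 and 9851, 9851 and 15155, and 1049 and 15155 gave that value (0.292 after Benjamini-Hochberg adjustment over the 7 pairs), with the same sign on all 4 arrays, and the other 4 pairs gave exact p between 0.25 and 1. The test is too small to pass at 0.05.

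The 2 Bdnf features were apart at 1 h and closer later. Bdnf 15431 read 0.73 at 1 h and -0.20, 0.00 and 0.07 at 2, 4 and 6 h, so its 1 h value stood alone. It was the highest of the 7 features on that array, with 96.0% of all features below it. Bdnf 7818 read 0.00 at 1 h and 0.24, 0.20 and 0.28 at 2, 4 and 6 h, and at the 3 later times between 80.1% and 88.5% of all features lay below it. Their distance was 0.73 at 1 h, where 15.8% of 2015 pairs of 1 gene were at least as far apart, and 0.44, 0.20 and 0.21 at 2, 4 and 6 h. The order of the pair turned, with 15431 the higher at 1 h and 7818 the higher at 2, 4 and 6 h.

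All 7 features had their highest or their lowest ratio on the 1 h array, where 76% of all features tested had theirs. For 4 of them (Arc 3568, Homer1 6082, Homer1 9851 and Bdnf 15431) it was the highest, as for 33.6% of all features, and for 3 (Homer1 1049, Homer1 15155 and Bdnf 7818) the lowest, as for 42.4%. Homer1 1049 and Bdnf 7818 (2 of the 7) were below 0 at 1 h and above 0 later, as 16.9% of all features were, but both lay close to 0 at 1 h, and the deposited 1 h value of Bdnf 7818 before centring was just above 0 (0.0029). Counted together, 4, 3, 3 and 4 of the 7 features were positive at 1, 2, 4 and 6 h, and their medians were 0.07, -0.01, 0.00 and 0.07. At 1 h 3 features (Arc 3568, Homer1 9851 and Bdnf 15431) were at or above 0.5, where 9.03% of all features were, and 1 (Homer1 15155) was at or below -0.5, where 6.37% were. Past 0.5 in either direction at 1 h were thus 4 of 7, beside 15.4% of all features. With the arrays brought to equal spread it was 1 of 7, Bdnf 15431 at 0.56, beside 8.23% of all features, and with quantile normalisation also 1 of 7, beside 9.38%. Read as natural logarithms, 1 of 7 was past 0.5 at 2 h, beside 16.2%. At 2 h 0 of 7 were past 0.5 in either direction, beside 6.36% of all features. At 4 h and 6 h Homer1 6082 alone was, at or below -0.5, beside 5.21% and 4.09% of all features on that side. In either direction 923 of 10185 features were past 0.5 at 4 h. None of the 7 reached 1 at any time, where 2.13%, 0.957%, 2.11% and 1.55% of all features did at 1, 2, 4 and 6 h.

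**Figure D3:**
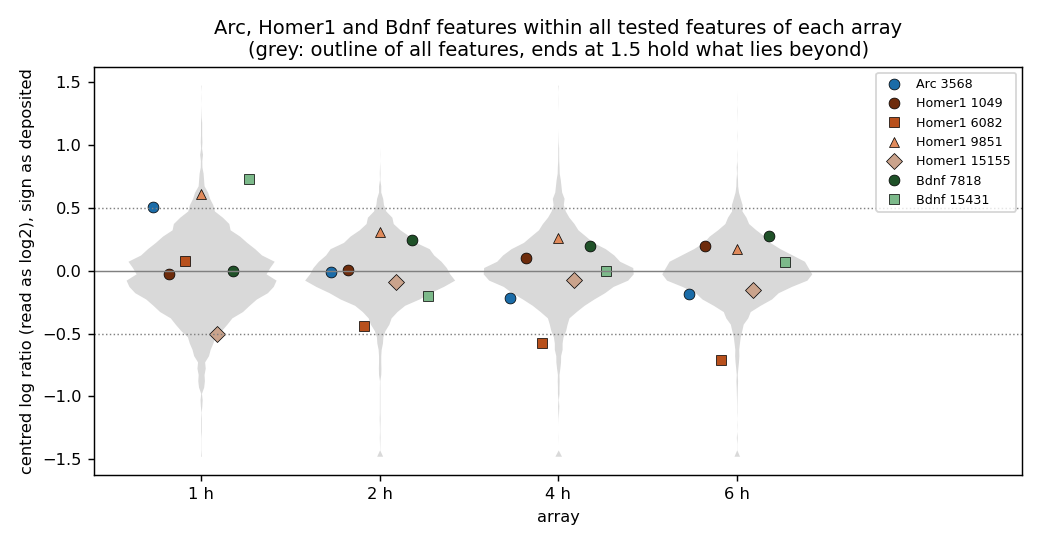
The 7 features of Arc, Homer1 and Bdnf (symbols) on each array, with the grey outline showing how the 8777 features tested are spread (centred log ratio read as log2, sign as deposited, features beyond 1.5 in either direction drawn at the ends) and dotted lines at 0.5 and -0.5. At 1 h Arc, Homer1 9851 and Bdnf 15431 lie above the upper line and Homer1 15155 just below the lower one, while at 4 and 6 h Homer1 6082 alone lies outside them.

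The first test asked whether a feature's mean over the 4 arrays differed from 0. limma with Benjamini-Hochberg adjustment placed 0 of 8777 features past an adjusted p of 0.05 (percent called 0), with 1295 (14.8%) at an unadjusted p under 0.05. With 1 array per time, the spread between times serves as the error, and it holds technical and biological spread alike. The dyes were the same way round on every array, so the mean also holds any dye bias that the arrays share. That bias was not tested. Homer1 9851 had a mean of 0.34 ± 0.09 (SE over 4 arrays, 95% interval 0.12 to 0.55) with an adjusted p of 0.255, and Homer1 6082 had -0.41 ± 0.13 (-0.74 to -0.09) with an adjusted p of 0.284 in limma. These were the 2 of the 7 at an unadjusted p under 0.05 (0.00898 and 0.0202 in limma). The 2 features stand for the same gene and had means of opposite sign. Bdnf 7818 averaged 0.18 ± 0.07 (adjusted p = 0.338, limma), Bdnf 15431 0.15 ± 0.15 (0.664), Homer1 15155 -0.20 ± 0.09 (0.364), Homer1 1049 0.07 ± 0.07 (0.66) and Arc 0.03 ± 0.13 (0.945). The interval for the mean of Arc ran from -0.29 to 0.34.

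Without the 1 h array, limma placed 1023 of 9353 features (10.9%) past the threshold for the mean, and of the 7 features of Arc, Homer1 and Bdnf only Homer1 6082 passed: its mean over 2, 4 and 6 h was -0.57 with an adjusted p of 0.019. Over those 3 arrays Bdnf 7818 averaged 0.24 (adjusted p = 0.0511, limma) and Homer1 9851 0.24 (0.0552), while Arc averaged -0.14 (0.209). With weights estimated for each array, the 1 h array had the lowest (0.20, against 3.38 for the 6 h array), and 27.4% of features passed. Homer1 6082, Bdnf 7818 and Homer1 9851 were among them (adjusted p 0.00639, 0.0152 and 0.0246 in limma), 3 of the 7. These means, and those without the 1 h array, also hold any dye bias that the arrays share.

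The second test asked for a slope with time, in which a dye bias that is constant over the arrays cancels. limma placed 0 of 8777 slopes past the threshold (percent called 0), with 1357 (15.5%) at an unadjusted p under 0.05. Arc had a slope of -0.27 ± 0.08 per doubling of time (SE, 95% interval -0.46 to -0.08, unadjusted p = 0.0128, adjusted p = 0.272, limma). Homer1 6082 had -0.29 ± 0.07 (-0.46 to -0.12, unadjusted p = 0.00664, adjusted p = 0.271, limma). Homer1 9851 and Bdnf 15431 had slopes below 0 as well (-0.16 ± 0.06 and -0.22 ± 0.13), and Homer1 1049, Homer1 15155 and Bdnf 7818 had slopes above 0 (0.08 ± 0.06, 0.13 ± 0.08 and 0.09 ± 0.06). Thus 4 of 7 slopes were below 0, beside 45.5% of all features. Without the 1 h array the slope of Arc was -0.12 (adjusted p = 0.788, limma) and that of Homer1 6082 -0.17 (0.776). The other slopes became -0.08 for Homer1 9851, 0.12 for Homer1 1049 and 0.01 for Bdnf 7818, and changed sign for Bdnf 15431 (0.17) and Homer1 15155 (-0.03).

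**Figure D4:**
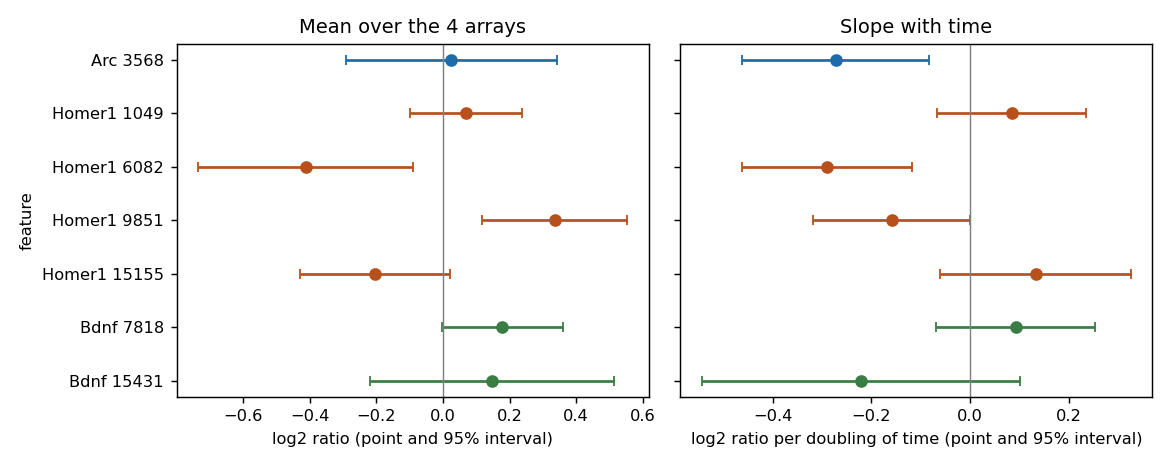
Mean over the 4 arrays (left, log2 ratio) and slope with time (right, log2 ratio per doubling of time) of each Arc, Homer1 and Bdnf feature, points with 95% intervals from limma, not adjusted for the number of features. The intervals of the mean of Homer1 6082 (-0.74 to -0.09) and Homer1 9851 (0.12 to 0.55) lie on opposite sides of 0, and those of the slopes of Arc and Homer1 6082 lie below 0.

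Features with a time course most like that of Arc were found by the root mean square difference over the 4 arrays, among all features with 1 gene symbol and values on all 4. The 5 nearest were those of Dock8 (a guanine nucleotide exchange factor, difference 0.02), Coro7 (0.04), Rhcg (an ammonium transporter, 0.04), Kcna7 (a potassium channel, 0.06) and H2-Q5 (0.06). Dock8 read 0.50, 0.00, -0.24 and -0.22 at 1, 2, 4 and 6 h. Of the other 6 features named here Bdnf 15431 was the nearest to Arc (0.22, rank 951 of 7683), followed by Homer1 9851 (0.34, rank 3292). The nearest to Homer1 6082 were Ttc7 (0.08), Ago4 (0.09) and Egln3 (0.10), those to Homer1 9851 were Sufu (0.06), Msmo1 (0.07) and Map2k1 (0.07), those to Homer1 1049 were Fbxo4 (0.02), Pdcd5 (0.03) and Cyp4a10 (0.03), and those to Homer1 15155 were Prcc (0.01), Trpc6 (0.01) and Zeb1 (0.03). For Bdnf 7818 they were Mpnd, the clock gene Cry1 and Snurf (each 0.03), and for Bdnf 15431 Atp5g1 (0.06), Chchd3 (0.07) and Tysnd1 (0.07). In none of these short lists was another feature of Arc, Homer1 or Bdnf. With 4 arrays many features lie this close, and the likeness is a description.

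The proteins that Arc works with, the endocytic and AMPA receptor traffic genes, had medians of -0.15, 0.14, 0.14 and 0.15 at 1, 2, 4 and 6 h over 20 of their 32 features, where all features tested had medians of -0.03, -0.01, 0.00 and 0.00. The medians of this and the following lists cover only features with values on all 4 arrays. Of the 20 features 6 were negative at 1 h and positive at 2, 4 and 6 h, beside 16.9% of all features. For the tests, 0 passed for the mean and 0 for the slope. Gria3, an AMPA receptor subunit, read -0.48, -0.02, 0.16 and 0.28 (slope 0.28 ± 0.07, adjusted p = 0.271, limma), and Gria4, another subunit, read -0.36 at 1 h and between 0.41 and 0.61 later. Pick1, which binds AMPA receptors and brings them inside the cell, read -1.04, 0.20, 0.40 and 0.14 in feature 17497, while its feature 4516 had values at 4 and 6 h alone, of -2.24 and -2.49. Ap2m1, a subunit of the clathrin adaptor that Arc binds, was positive throughout in feature 9147 (0.46, 0.35, 0.27 and 0.28), and its feature 12665 read -0.10 at 1 h and between 0.27 and 0.38 later. Ube3a, a ubiquitin ligase, was negative throughout (-0.25, -0.22, -0.25 and -0.40). Among the features left out of the medians, Camk2b 15335 read -0.27, -2.66 and -3.05 at 1, 4 and 6 h. Dnm1 4409 read -2.55 and -2.86 at 4 and 6 h, where Dnm1 9666, inside the medians, read 0.13 and 0.16. Gria2 4935, also left out, read 0.08, 0.29 and 0.14 at 2, 4 and 6 h.

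Among the relatives and partners of Homer1, 18 features had medians of -0.13, -0.08, 0.01 and -0.09 at 1, 2, 4 and 6 h, and 0 passed either test. Ryr3 encodes a ryanodine receptor, a calcium channel of a kind that Homer proteins bind. The lowest value of the list was that of Ryr3 9482 at 2 and 4 h and that of Ryr3 2815 at 6 h. Ryr3 9482 read -0.16, -0.49, -0.71 and -0.49, and Ryr3 2815 read -0.07, -0.48, -0.42 and -0.65. Both features were thus negative on all 4 arrays. Their means were -0.46 and -0.41 (adjusted p 0.23 and 0.245, limma). Ryr3 12237 had a value at 1 h alone, 1.04. Ryr1 read 0.45, -0.19, -0.47 and -0.63 in feature 18477 (slope -0.41, adjusted p = 0.271, limma), while its feature 8020 was positive throughout (0.05, 0.44, 0.21 and 0.32). The scaffold gene Shank3 was negative throughout, from -0.45 at 1 h to -0.19 at 6 h. The 2 features of Dlg4, which encodes the scaffold PSD-95, ran in opposite directions, at -0.30, 0.10, 0.58 and 0.23 for 12831 and at 0.41, 0.24, 0.04 and -0.11 for 15437. Homer2 and Homer3, named here as the relatives of Homer1 and not by the size of their ratios, had 4 features with values on all arrays: each was negative at 1 h (between -0.14 and -0.09) and positive at 2 h (between 0.07 and 0.45). At 4 h these features lay between -0.06 and 0.12, and at 6 h between 0.07 and 0.27. The share of all features with such signs at 1 and 2 h was not counted. A further Homer2 feature, 18275, with no value at 6 h, was positive at 1, 2 and 4 h (0.43, 0.38 and 0.44).

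**Figure D5:**
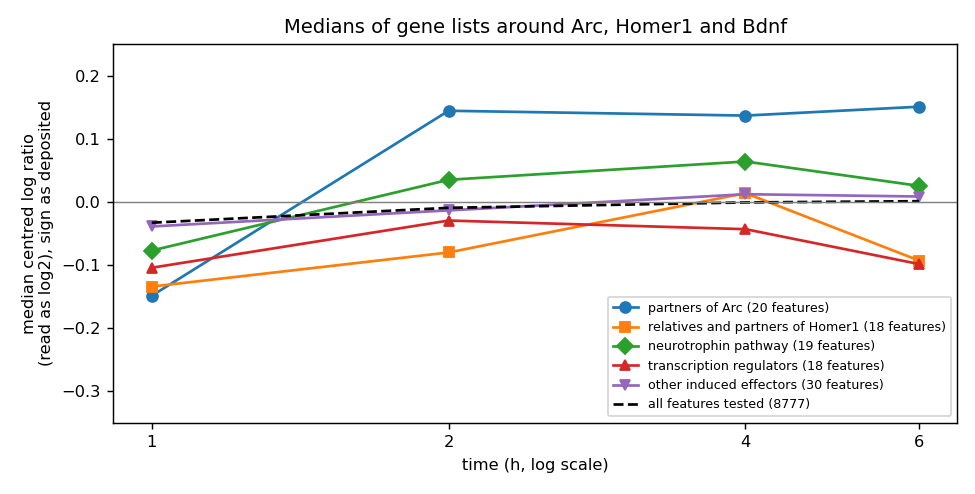
Median centred log ratio (read as log2, sign as deposited) of 5 gene lists around Arc, Homer1 and Bdnf, without these 3 genes, against time in h on a log scale, with the median of all 8777 features tested as a dashed line. The partners of Arc lie at -0.15 at 1 h and between 0.14 and 0.15 later, while the other activity-induced effector genes stay within 0.04 of 0 on every array.

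In the neurotrophin pathway 19 features had medians of -0.08, 0.03, 0.06 and 0.03 at 1, 2, 4 and 6 h, and 0 passed either test. Pcsk1, a convertase of neuropeptide precursors, was positive throughout in feature 13696 (0.56, 0.19, 0.60 and 0.36, mean 0.43, adjusted p = 0.23, limma), but its feature 12560 read 0.31, -0.29, 0.08 and -0.09. Shc3, an adaptor of Trk receptors, read -0.47 at 1 h and between 0.55 and 0.58 later in feature 7989, while its feature 7514 had a value at 1 h alone, 0.74. The protease gene Mmp9 read -0.31 at 1 h and between 0.27 and 0.56 later in feature 5892, was negative throughout in feature 12977 (-0.40, -0.25, -0.01 and -0.14), and read 0.32 and 0.27 at 1 and 2 h in feature 9552, which had no later value. Pcsk6, another convertase, read -0.58, 0.03, -0.05 and 0.20 in feature 14300, while its feature 15256 read 0.48 and 0.03 at 1 and 2 h and had no later value. The features of Pcsk1, Shc3, Mmp9 and Pcsk6 thus differed within each gene. Ntrk2, which encodes the Bdnf receptor TrkB and is named for that and not by the size of its ratio, read 0.38, -0.18, -0.08 and -0.16, positive at 1 h and negative later, as Arc was. It was the only 1 of the 19 features with these signs, beside 15% of all features.

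Factors known to act on these genes, 18 features, had medians of -0.10, -0.03, -0.04 and -0.10, and 0 passed either test. Crem, a relative of CREB, was positive throughout (0.25, 0.11, 0.41 and 0.38), as was the calcium-dependent kinase gene Camk4 (0.12, 0.30, 0.33 and 0.33). Ppp3r1, the regulatory subunit of calcineurin, read -1.21 at 1 h and between -0.22 and -0.15 later. Mef2d read -0.33, -0.18, 0.48 and -0.09, and Usf2 0.38, 0.07, -0.03 and 0.01 in feature 8521, with 0.65 at 2 h in feature 6485, its 1 value. Srf, named for its role and not by the size of its ratio, read 0.24, -0.15, -0.13 and -0.13. Of the 18 features 2, Srf among them, were positive at 1 h and negative later, beside 15% of all features.

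The other activity-induced effector genes, 30 features, had medians of -0.04, -0.01, 0.01 and 0.01, with 12 of 30 (40%) positive at 1 h, beside 45.6% of all features tested, and 0 passed either test. Gadd45b, a stress and DNA demethylation factor, read 0.80, 0.25, 0.08 and 0.05 in feature 10716 and -0.14, 0.02, -0.07 and 0.04 in feature 7815. The phosphatase gene Dusp1 had 2 features, both highest at 1 h and lowest at 6 h: 9414 read 0.46, 0.00, -0.23 and -0.35 (slope -0.31 ± 0.07, adjusted p = 0.271, limma), and 10684 read 0.36, 0.01, -0.21 and -0.34. Gadd45g read 0.08, -0.31, -0.42 and -0.40 in feature 9034 and -0.18, -0.11, -0.07 and -0.05 in feature 18424. The neuropeptide gene Adcyap1 was positive at 1 h and negative later in both features, at 0.20, -0.14, -0.19 and -0.84 in 16967 and 0.18, -0.43, -0.10 and -0.21 in 6300. Rgs4, a regulator of G protein signalling, read -0.37, 0.12, 0.51 and 0.75 in feature 4918 and 0.46, -0.11, 0.04 and 0.02 in feature 18432, so its features went opposite ways between 1 h and later times.

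Markers of cell types, granule cells included, moved between arrays as well. At 1 h the medians over features were 0.14 for microglia (10 features), 0.03 for astrocytes (12), -0.02 for oligodendrocytes (11), -0.18 for vessel cells (7), -0.09 for interneurons (8), -0.21 for granule cells (4) and -0.10 for pyramidal neurons (3). At 2 h they were 0.06, 0.07, 0.07, -0.16, 0.11, -0.05 and -0.37 in the same order. At 4 h they were 0.09, -0.03, 0.20, -0.05, 0.11, -0.10 and -0.12. At 6 h they were 0.24, 0.09, 0.07, 0.08, 0.08, -0.05 and -0.01. All features tested had medians of -0.03, -0.01, 0.00 and 0.00 at 1, 2, 4 and 6 h. The 3 blood features had medians of 0.24, 0.43, -0.03 and 0.24 at 1, 2, 4 and 6 h. The 3 choroid plexus features had medians of -0.20, -0.90, -0.60 and -0.70. The lowest of them at the 3 later times, Kl 13730, read 0.20, -2.64, -3.03 and -3.18. The other Kl feature among the 3, 2148, read -0.24, -0.20, -0.11 and -0.09. A further Kl feature, 2114, read 0.05 and -0.55 at 1 and 2 h and had no later value. The part of these cell types in the ratios of Arc, Homer1 and Bdnf was not tested.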

How the data were processed

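The deposited values are log ratios, read as log2, from 4 two-colour arrays in 1 table. The scanning and normalisation by the authors are not given in the sources used here. Exact 0, which filled between 24.9% and 37.4% of the features of an array, was treated as no value, and each array was centred on the median of its other values (between 0.0052 and 0.017). Features were named through the platform annotation, with symbols checked by Entrez identifier against assembly GRCm38.p6: 13738 of 16281 features had 1 symbol, 52 several and 2491 none. Features were kept apart, and means and slopes on log2 hours were fitted on all 8777 features with values on all 4 arrays with lmFit and eBayes in limma 3.58.1 (R 4.3.3), two-sided, after a test on simulated data. No label names separate animals, so p-values measure the spread between arrays alone, and the number of arrays limits the precision. The members, gene lists and tests were chosen with earlier results of these data known. From each list the text names the 3 features with the largest absolute mean and the 3 with the largest absolute slope, and the 5 features nearest to Arc and the 3 nearest to each other member. Alternatives were uncentred values, equal spread, quantile normalisation, exact 0 as a value, values on at least 3 arrays, array weights, gene means, natural logarithms and leaving out each array.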

Additional observations from a re-analysis of the deposited data

Results flagged for a closer look

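With 1 array per time, a difference between single times has no replicate error and was not tested. The slope over the 4 times was tested with limma, and 0 of 8777 features passed. For 3 features the highest and the lowest time lay at least 0.5 apart and on opposite sides of 0. The share of all features that did so was not counted, so the rule is not shown to set these 3 apart. The highest minus the lowest ratio was 0.72 for Arc 3568 (1 h and 4 h), 0.79 for Homer1 6082 (1 h and 6 h) and 0.92 for Bdnf 15431 (1 h and 2 h). In each of the 3 the highest value was on the 1 h array, which was the array that stood apart over all features.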

How the results depend on the processing

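Over 11 alternatives for each of the 7 means and 7 slopes, 66 means and 72 slopes kept their direction and their side of the threshold. Part of this tally could not differ. All 7 features had a value on every array, so exact 0 as a value and values on at least 3 arrays left their estimates unchanged. The gene mean of Arc is its 1 feature. None of the 7 passed in the main fits, so a side could change only by passing. The mean of Arc turned negative with equal spread (-0.017), quantile normalisation (-0.016) and array weights (-0.14), and its values without 1 array each ran from -0.14 to 0.11. Without 1 array each, the means of Bdnf 15431 and Homer1 6082 ran from -0.045 to 0.26 and from -0.57 to -0.31, and the slopes of Bdnf 15431 and Homer1 15155 from -0.37 to 0.17 and from -0.035 to 0.22. The mean over the features of a gene, -0.053 for Homer1, has the opposite sign to Homer1 1049 and Homer1 9851, and the slopes of the gene means, -0.058 for Homer1 and -0.065 for Bdnf, have the opposite sign to Homer1 1049, Homer1 15155 and Bdnf 7818. With array weights the means of Homer1 6082 (-0.61), Homer1 9851 (0.23) and Bdnf 7818 (0.24) passed. The number of features past the threshold for the mean was 11 with quantile normalisation, 19 with values on at least 3 arrays, 2406 with array weights and from 0 to 1023 without 1 array each, and for the slope it was 0 throughout. Of the 7 features, 1 was past 0.5 at 1 h with equal spread (998 of all features) and 1 with quantile normalisation (1138), where 4 were before (1868), and 1 at 2 h with natural logarithms (1977 of all features, where 778 were before). Apart from the gene means, which average features of differing sign, the cause was not tested. Beyond the pairing of the 2 channels on an array, no pairing of samples could be used, because the labels give no replicate numbers. Signal over background could not be examined, since the table holds ratios alone.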
